A study of Arabidopsis thaliana with 5 samples.

Results

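In unopened flower buds of rdr6 plants, dsRNA-seq was set against smRNA-seq to find the loci that still carry both base-paired RNA and small RNAs (smRNAs) when RNA-DEPENDENT RNA POLYMERASE6 (RDR6) is lost. The comparison used 2 of the 5 libraries of the series, rdr6 dsRNA and rdr6 smRNA, and the wild-type Col-0 dsRNA and wild-type Col-0 smRNA libraries served as their references. All plants were of the Col-0 ecotype of Arabidopsis thaliana and 6 weeks old when RNA was taken, and rdr6 stands for the rdr6-11 mutant. For dsRNA-seq, RNA pooled from 3 biological replicates went through 1 round of rRNA depletion and digestion with RNase One, a ribonuclease specific for single-stranded RNA, and was then fragmented and sequenced with its strand kept. For smRNA-seq, libraries were made with a small RNA kit, and the sources differ on how the RNA was treated before that. The protocol given with the smRNA samples is the one of dsRNA-seq, with depletion and RNase One, whereas their sample descriptors name neither step. Each condition has 1 library, so that no difference has a replicate check. Every interval below is an exact 95% Clopper–Pearson interval. Around a ratio or a share of reads it covers counting error only. Around a share of genes or bins it treats the loci as independent draws, although they are not replicates. Neither kind covers variation between plants or libraries.

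Only reads with 1 location in the genome were used, which were 2635203 of 8193747 mapped reads (32.2%) in rdr6 dsRNA and 6814360 of 11123274 (61.3%) in rdr6 smRNA. A gene or a 1 kb bin was taken to carry both when each of the 2 rdr6 libraries had at least 20 such reads in it. This held for 2430 of 38028 annotated genes (6.39%, interval 6.15–6.64%) and for 5980 of 119671 bins (5.0%). Reads of 24 nt made up 2.64% of the rdr6 dsRNA reads and 73.9% of the rdr6 smRNA reads, whereas chloroplast locations held 38.6% of the dsRNA reads and 0.582% of the smRNA reads. The reads of RDR6 itself (AT3G49500) were too few to check the genotype, with 9 in dsRNA and 6 in smRNA of rdr6, against 22 in dsRNA and 2 in smRNA of wild-type Col-0.

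In plants, most smRNAs are cut from double-stranded RNA by DICER-LIKE (DCL) enzymes. RDR6 copies cleaved transcripts, among them the TRANS-ACTING siRNA (TAS) transcripts, into dsRNA from which DCL4 releases phased tasiRNAs. A second polymerase, RDR2, supplies the dsRNA from which DCL3 makes the 24-nt siRNAs of transposons and repeats, and miRNAs come from the folded hairpins of their own transcripts through DCL1, without any RDR.

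Examples of what the loci carried are printed here because the results on length, position and first base turn on them. The first set holds mature miRNAs, as given in RefSeq for TAIR10.1, of 5 of the 8 ranked hairpins, chosen because reads of the annotated miRNA were seen in both libraries. Of the same hairpins, miR161.2 and miR391-3p also had exact reads in both rdr6 libraries and are not printed. They had 3 and 1 in dsRNA, and 86 and 34 in smRNA. MIR8173, MIR5644 and MIR156d also rank among the 8, but the annotated miR8173, miR5644 and miR156d-5p had 0 exact reads in each rdr6 library and are not printed. For miR156d-5p the count was 0 in wild-type Col-0 dsRNA and smRNA too. Reads with several locations in the genome were left out, so a count of 0 does not show that a miRNA is absent. Capitals mark the seed, bases 2 to 8.
miR158a-3p, chr3:3366349-3366368, minus strand: uCCCAAAUguagacaaagca
miR161.1, chr1:17825731-17825751, plus strand: uGAAAGUGacuacaucggggu
miR780.1, chr4:8504166-8504186, minus strand: uCUAGCAGcuguugagcaggu
miR780.2, chr4:8504145-8504165, minus strand: uUCUUCGUgaauaucuggcau
miR156h, chr5:22597087-22597106, minus strand: uGACAGAAgaaagagagcac
miR391-5p, chr5:24293160-24293180, plus strand: uUCGCAGGagagauagcgcca
These 6 seeds differ from one another. The mature miR158a-3p had 815 exact reads in rdr6 dsRNA and 24665 in rdr6 smRNA, and miR156h had 47 and 2221. For miR161.1 the numbers were 3 and 729.

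The second set holds the most abundant dsRNA read and the most abundant smRNA read of loci with high read numbers in both libraries, read from TAIR10.1, whose nuclear chromosomes have the lengths of the TAIR9 build used by the authors. Capitals mark the first base. In the 3 pairs below, the shorter dsRNA read lies inside the 24-nt smRNA read on the same strand.
AT3G03395, dsRNA, chr3:5780503-5780522, minus strand: Ggggctgtaataatcggggt
AT3G03395, smRNA, chr3:5780499-5780522, minus strand: Ggggctgtaataatcggggtgact
AT1G09485, dsRNA, chr1:16365876-16365896, minus strand: Gctcttggacagtagaaggga
AT1G09485, smRNA, chr1:16365876-16365899, minus strand: Gaggctcttggacagtagaaggga
no annotated gene, dsRNA, chr2:2606093-2606113, plus strand: Ggggttaaccgatcgagaggg
no annotated gene, smRNA, chr2:2606093-2606116, plus strand: Ggggttaaccgatcgagagggaaa
In the first and the third pair both reads start at the same base, and in the second pair both reads end at the same base. The dsRNA read had 2929 of the 15866 dsRNA reads of AT3G03395, 548 of the 4670 of AT1G09485 and 1731 of the 13190 of the bin on chromosome 2.

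The third set shows what remained of a TAS transcript. The most abundant rdr6 smRNA of TAS1A was a 21-nt read on the sense strand, and the same read led the wild-type Col-0 dsRNA and smRNA reads of that transcript.
TAS1A, chr2:11721923-11721943, minus strand: Atgatatttgtagtaatggcg
It had 140 of the 279 smRNA reads of TAS1A in rdr6, against 6654 of 12506 in wild-type Col-0.

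The loci that carried both in rdr6 were mostly pseudogenes, a class that in this annotation also holds many transposon genes, since it gives transposable elements no separate class. Pseudogenes made up 1274 of the 2430 genes (52.4%), protein-coding genes 838 (34.5%), other non-coding RNAs 205 (8.44%), snoRNAs 73, tRNAs 21 and miRNAs 17, with 1 rRNA and 1 snRNA gene besides. Of all annotated genes of each class, the share carrying both was 26.3% for pseudogenes (interval 25.1–27.6%), 25.4% for snoRNAs (20.5–30.9%), 5.21% for miRNAs (3.07–8.22%), 4.78% for other non-coding RNAs (4.16–5.46%) and 3.04% for protein-coding genes (2.84–3.25%). A gene with at least 20 dsRNA reads also had 20 smRNA reads in 97.8% of pseudogenes (1274 of 1302) but in 14.3% of protein-coding genes (838 of 5880). The other way, a gene with at least 20 smRNA reads also had 20 dsRNA reads in 46.8% of pseudogenes and 47.4% of protein-coding genes. In the chloroplast, 35 of 129 genes carried both.

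By position, 2369 of the 5980 bins (39.6%, interval 38.4–40.9%) lay in gene-poor windows, which are the 20 of 121 nuclear windows of 1 Mb that hold under 50% of the median number of protein-coding genes. These windows hold 16.7% of all bins, 27.0% of the bins with at least 20 dsRNA reads and 43.8% of those with at least 20 smRNA reads. Within them, 11.8% of the bins carried both, compared with 3.54% of the bins in other nuclear windows. A pseudogene lay over 2232 of the bins, a protein-coding gene over 1759, and 1784 nuclear bins (29.8%) held no annotated gene. The 5 chromosomes were alike in this, with 4.12% to 5.61% of their bins carrying both.

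Scaled to each library's single-location reads, genes carrying both had a median log2 ratio of dsRNA to smRNA of -0.41 (quartiles -1.30 and 0.46), and bins a median of -0.43. A locus was called higher in one library when the scaled values differed by 2-fold or more and the exact Audic–Claverie probability was under 0.001, which compares these 2 libraries and not the conditions. Among the 2430 genes, dsRNA was higher in 363 (14.9%), smRNA was higher in 777 (32.0%) and 1290 were not called. Over all 11214 genes tested, meaning those whose summed reads reached 20, 54.7% were called with dsRNA higher and 21.7% with smRNA higher, and the median was 3.34. Among the 5980 bins, dsRNA was higher in 908 and smRNA in 2140, where 19.4% and 46.8% of the 24534 bins tested were called in those directions, with a median of -1.63. The minimum of 20 reads in each library leaves out the loci with the most unequal numbers, so that nothing is read from these differences to the background.

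The balance of the 2 directions depended on the scaling. Reads outside rRNA, tRNA, snRNA and snoRNA genes and the organelles were 53.5% of rdr6 dsRNA and 99.1% of rdr6 smRNA, and scaling by them moved every log2 ratio up by 0.89. The genes then split into 813 with dsRNA higher and 342 with smRNA higher, and the bins into 2089 and 1225, so that the direction with more calls was the other one. Differences between classes do not depend on this scaling. The median log2 ratio was 8.24 for chloroplast genes, 5.03 for tRNAs, 4.40 for snoRNAs, -0.30 for other non-coding RNAs, -0.41 for pseudogenes, -0.63 for protein-coding genes and -1.63 for miRNAs. The chloroplast genes are also counted in their classes, and chloroplast tRNAs are among the tRNAs. In the main scaling, dsRNA was higher in 68 of the 73 snoRNAs and 19 of the 21 tRNAs, and smRNA was higher in 12 of the 17 miRNAs.

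**Figure D1:**
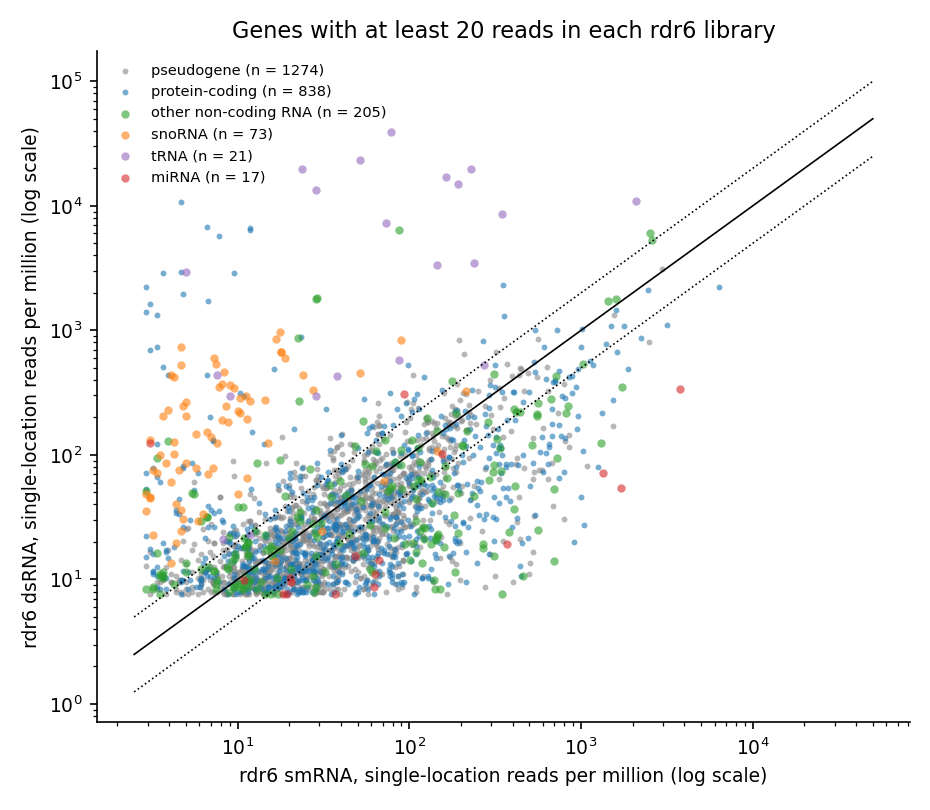
Single-location reads scaled to 1000000 in rdr6 dsRNA (vertical, log scale) and rdr6 smRNA (horizontal, log scale), 1 point per gene carrying both, coloured by class, with the 35 chloroplast genes included in their classes. The solid line marks equal scaled values and the dotted lines a ratio of 2. Most snoRNAs and tRNAs lie above the upper line, miRNAs mostly lie below the lower one, and pseudogenes spread around the line of equality.

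Outside the chloroplast, snoRNAs, which guide the modification of other RNAs, were prominent on the dsRNA side. Of the 5 nuclear genes with the highest ratio, 4 were snoRNAs. AT1G03743 had 1940 dsRNA and 32 smRNA reads (log2 ratio 7.29, interval 6.79 to 7.84) and AT2G08375 had 1397 and 32 (6.82, 6.32 to 7.37). AT2G20723 had 1161 and 28 reads and AT1G08327 had 1120 and 29. The most abundant dsRNA read was 38 nt long, the longest read length, in the first 3 of these snoRNAs. The remaining gene, AT3G23450, is an uncharacterized protein-coding gene with 1161 dsRNA and 27 smRNA reads, all of both on the sense strand.

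On the smRNA side, the 5 nuclear genes with the lowest ratio had log2 ratios between -5.64 and -5.44. The non-coding RNA AT1G09805 had 37 dsRNA and 4753 smRNA reads, with 100% and 98.4% of them on the sense strand. The other non-coding RNAs among them were AT3G07775 (20 dsRNA and 2368 smRNA reads) and AT3G06655 (28 and 3134). AT2G22160, annotated as a cysteine proteinase superfamily protein, had 53 and 6227 reads, and the pseudogene AT5G27603 had 29 and 3378. In all 5 the most frequent smRNA length was 24 nt.

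Nuclear genes of each class were ranked by the smaller of their scaled values, and the first 8 of a class are described. Among non-coding RNAs, 2 stood out. AT3G03395, on chromosome 3 from 5780047 to 5780594, had 15866 dsRNA and 17076 smRNA reads in rdr6 (log2 ratio 1.26, interval 1.23 to 1.30), and AT3G08370, at 20030910 to 20031192 on the same chromosome, had 14073 and 17560 (1.05, 1.02 to 1.08). Both were called with dsRNA higher. The non-coding RNAs AT1G09485 (4670 and 10857 reads) and AT3G05025 (4564 and 9832) had log2 ratios of 0.15 and 0.26, which were not called. At AT4G05995, 926 dsRNA and 11846 smRNA reads gave a log2 ratio of -2.31. The 8 non-coding RNAs also include AT3G04585, AT4G07765 and AT5G04245, and all 8 gave smRNAs of which 73.6% to 78.8% were 24 nt.

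Of the pseudogenes, AT3G43832 had the most reads, 8126 in dsRNA and 20196 in smRNA (log2 ratio 0.06), followed by AT1G77095 (3508 and 10626) and AT3G43730 (2142 and 16972). SADHU9-1, a member of the Sadhu family of retrotransposons, had 2241 and 3850 (0.59, interval 0.51 to 0.67). Among protein-coding genes, AT4G08545, annotated as an LRR receptor-like protein, had 5917 dsRNA reads and 43229 smRNA reads, the highest smRNA number of any gene carrying both. The methyltransferase-family gene AT2G16030 had 2876 and 12110 reads, the protein kinase-family gene AT4G29654 3840 and 10821, and the mechanosensitive ion channel-like gene AT1G49260 2697 and 6889. All 16 of the ranked pseudogenes and protein-coding genes had 24 nt as the most frequent smRNA length.

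Outside annotated genes, the bin at chr4:13902001-13903000 had 10260 dsRNA and 33774 smRNA reads (log2 ratio -0.35), and the bin at chr2:2606001-2607000 had 13190 and 10937 (1.64, interval 1.60 to 1.68). The bin on chromosome 2 was the only one of the 8 ranked bins called with dsRNA higher, and the bin at chr4:2073001-2074000, with 5327 and 30569 reads, was the only one called with smRNA higher. In the 8 bins, 70.5% to 81.0% of the smRNAs of 20 to 25 nt were 24 nt long.

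Small RNAs came from both strands at most loci, and dsRNA from both strands at fewer. A library was taken as two-stranded at a locus when the less used strand held at least 20% of its reads. The dsRNA was two-stranded in 44.2% of the bins and the smRNA in 78.6%, and the median share of the less used strand was 16.7% in dsRNA and 32.8% in smRNA. Both libraries were two-stranded in 2404 bins (40.2%, interval 39–41.5%), smRNA only in 2298, dsRNA only in 239 and neither in 1039. Among genes, both were two-stranded in 1277 of 2430 (52.6%). This was so in 67.0% of the pseudogenes (854 of 1274, interval 64.4–69.6%), 41.3% of the protein-coding genes (346 of 838), 35.6% of the other non-coding RNAs (73 of 205), 3 of the 17 miRNAs and 0 of the 73 snoRNAs, where 0 allows a share of up to 4.93%.

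**Figure D2:**
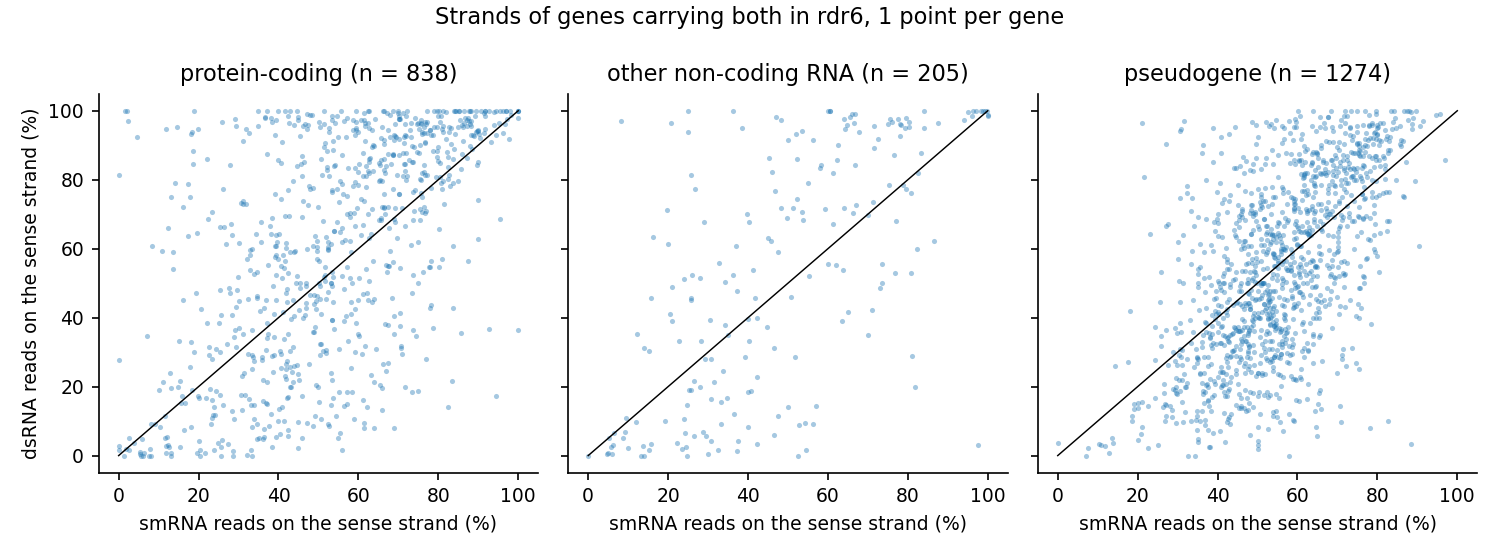
Share of rdr6 dsRNA reads on the annotated sense strand (vertical, %) and of rdr6 smRNA reads (horizontal, %), 1 point per gene carrying both, for protein-coding genes, other non-coding RNAs and pseudogenes. The dsRNA shares span 0% to 100% in each class, and the smRNA shares of pseudogenes lie closer to 50%, with quartiles of 45.4% and 66.4% against 34.1% and 75.9% for dsRNA.

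The strands of the 2 libraries were the same more often than opposite. At a majority of at least 60%, dsRNA and smRNA were on the same strand in 3161 bins (52.9%) and on opposite strands in 585 (9.78%), and 212 genes (8.72%) were of the second kind. Some loci with the most reads were among those. The pseudogene AT3G43832 had 9.61% of its dsRNA and 70.8% of its smRNA reads on the sense strand. AT4G29654 had 13.4% and 66.0%, and AT2G16905, another pseudogene, had 80.0% and 37.1%. Others had the same majority strand in both libraries, such as SADHU9-1 (95.6% of dsRNA and 74.8% of smRNA reads sense), AT3G08370 (96.2% and 78.0%) and AT3G03395 (35.0% in each), although the smRNA of these 3 was two-stranded. snoRNA reads were mostly on the sense strand in both libraries, with a median of 100% in each. For the 21 tRNAs, which include chloroplast tRNAs, the median sense share was 75.3% in dsRNA and 99.8% in smRNA. Their dsRNA was two-stranded in 52.4%, and in 6 of them the 2 libraries were on opposite strands. For miRNA hairpins the medians were 100% in dsRNA and 96.0% in smRNA, with exceptions such as MIR841b (0% of dsRNA and 61.4% of smRNA reads sense) and MIR8180 (60.9% and 35.4%).

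The smRNAs of these loci were 24 nt long almost everywhere. Over the nuclear bins carrying both, 75.3% of the smRNA reads of 20 to 25 nt were 24 nt, 14.6% were 23 nt, 5.39% were 22 nt and 2.72% were 21 nt. The most frequent length was 24 nt in 5811 of the 5980 bins (97.2%), 21 nt in 67, 23 nt in 45 and 22 nt in 34. Among genes it was 24 nt in 2285 of 2430, which included 1270 of the 1274 pseudogenes and 796 of the 838 protein-coding genes. The 24-nt share of single bins had a median of 74.5%, with quartiles of 69.8% and 78.1%.

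The most frequent length was 21 nt in 48 nuclear bins carrying both, where a tie was given to the shorter length. In 10 of them 21 nt was tied with a longer length, and 19 had fewer than 10 reads of 21 nt. Of these, 22 lay over a snoRNA, 8 over a miRNA and 31 over a protein-coding gene, and a bin can count under several classes. Both libraries were two-stranded in 4 of the 48 (8.33%, interval 2.32–20%), against 41.1% of the bins with 24 nt (39.8–42.4%). In the smRNA library, 9.74% of the tRNA reads and 23.6% of the snoRNA reads were 20 to 25 nt long, compared with 99.5% of the pseudogene reads. For snoRNAs the most frequent length within that range was 24 nt in 18, 22 nt in 18 and 21 nt in 15 of the 73 genes.

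The dsRNA reads of the same loci were shorter than the smRNAs. In the nuclear bins carrying both, 86.9% of the rdr6 dsRNA reads were 17 to 22 nt, 4.24% were 23 to 25 nt and 5.03% were 38 nt. In the 3491 nuclear bins with 20 dsRNA reads but without 20 smRNA reads, 26.9% were 17 to 22 nt and 34.6% were 38 nt. Among genes carrying both, the share of 17 to 22 nt was 95.7% in pseudogenes, 76.3% in other non-coding RNAs, 55.6% in protein-coding genes, 26.1% in tRNAs and 18.2% in snoRNAs. In the same nuclear bins, 37.6% of the wild-type Col-0 dsRNA reads were 17 to 22 nt and 35.6% were 23 to 25 nt, and in the wild-type library after 2 rounds of depletion the shares were 59.1% and 9.81%. Whole libraries differed in the same direction, with 24-nt reads making up 2.64% of rdr6 dsRNA, against 14.1% of wild-type Col-0 dsRNA after 1 round and 4.46% after 2 rounds, and the part of this in the difference at these loci was not tested.

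**Figure D3:**
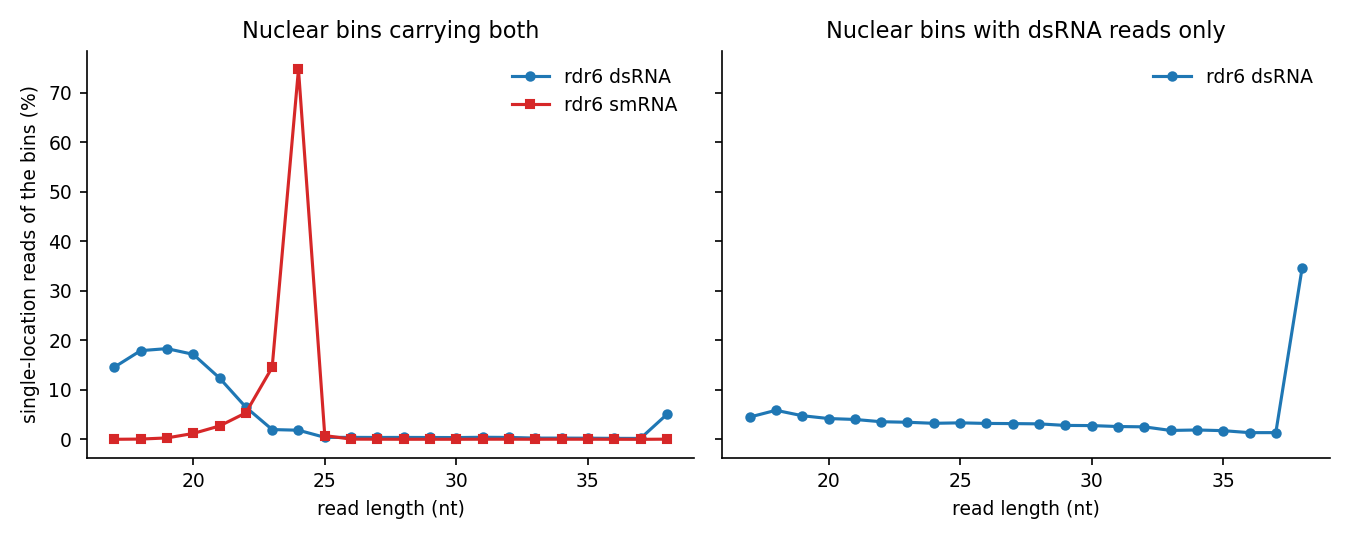
Read lengths (horizontal, nt) as a share of single-location reads (vertical, %) in rdr6 dsRNA (circles) and rdr6 smRNA (squares) over nuclear bins carrying both (left), and in rdr6 dsRNA over nuclear bins with at least 20 dsRNA reads but without 20 smRNA reads (right). At loci carrying both, dsRNA reads gather at 17 to 22 nt (86.9%) below the smRNA peak at 24 nt, whereas 34.6% of the reads at the bins on the right have the longest length, 38 nt.

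In rdr6, a minority of dsRNA reads coincided with an smRNA read from end to end, and most short ones lay inside one. A dsRNA read with the start, strand and length of an smRNA read made up 25.1% of the dsRNA reads in bins carrying both (516979 of 2056117) and 30.4% of those in genes. The shares were 52.5% in miRNAs (interval 50.6–54.3%), 46.6% in snoRNAs, 46.2% in tRNAs, 37.5% in other non-coding RNAs, 13.3% in protein-coding genes and 8.97% in pseudogenes (8.84–9.11%). These shares pool reads, so that genes with many reads weigh most. The median gene had 24.1% in miRNAs, 33.0% in snoRNAs and 46.4% in tRNAs. For other non-coding RNAs, protein-coding genes and pseudogenes the medians were 5.0%, 3.24% and 1.01%. The median bin had 2.86%. In wild-type Col-0 the exact matches at the same loci were a majority, 61.7% in bins, 67.7% in genes and 92.1% in miRNAs, and the part of the different dsRNA read lengths in this was not tested. Of the 889719 dsRNA reads of 17 to 22 nt in nuclear bins carrying both, 90.6% lay within a 24-nt smRNA read on the same strand, a measure added after seeing the data. The first base was shared with such a read in 66.6% and the last base in 67.6%, as in the printed reads of AT3G03395 and AT1G09485. Within a 24-nt read on the opposite strand lay 65.6%. The 24-nt smRNA reads of these bins began at 422975 positions of the Watson and 413140 of the Crick strand. The share that such dense positions would give by placement alone was not computed. Counted once per sequence, 80.4% of 252165 sequences lay within a 24-nt read on the same strand. In wild-type Col-0, 88.2% of the dsRNA reads of 17 to 22 nt lay within a 24-nt smRNA on the same strand of these bins.

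Single loci spanned a wide range of exact matches. At MIR158a, 889 of 891 dsRNA reads (99.8%) matched an smRNA read, and at MIR391 all 38 did. The bin at chr2:2606001-2607000 had 88.0%, AT3G03395 77.7% and AT3G08370 76.9%, whereas the bin at chr3:1210001-1211000 had 20.6% and AT1G77095 18.4%.

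DCL enzymes leave 2 unpaired bases at each 3′ end of a duplex, and pairs of reads on opposite strands were counted by offset to see whether the libraries hold such duplexes. Among 24-nt rdr6 smRNAs of nuclear bins carrying both, 109244 of 4610564 overlapping pairs of positions (2.37%) had this offset, where equal numbers over the 47 offsets would give 2.13%. The neighbouring offsets had 93879 and 96939 pairs. Blunt pairs had 111023 and an offset of 1 base the other way had 114668, the most of all, so that the overhang was above both neighbouring offsets without being the leading one. For 21-nt smRNAs the share was 2.62%, where equal numbers would give 2.44%, and with 2211 pairs the overhang was at the median offset and below a neighbouring offset with 2284. In 21-nt rdr6 dsRNA reads the leading pair was blunt, with 2605 of 14811 pairs (17.6%), which is 10.5-fold over the median offset, and the 2-base overhang had 676 pairs (4.56%, interval 4.23–4.91%). In wild-type Col-0 dsRNA, blunt pairs of 21 nt were 9.16% at the same bins.

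**Figure D4:**
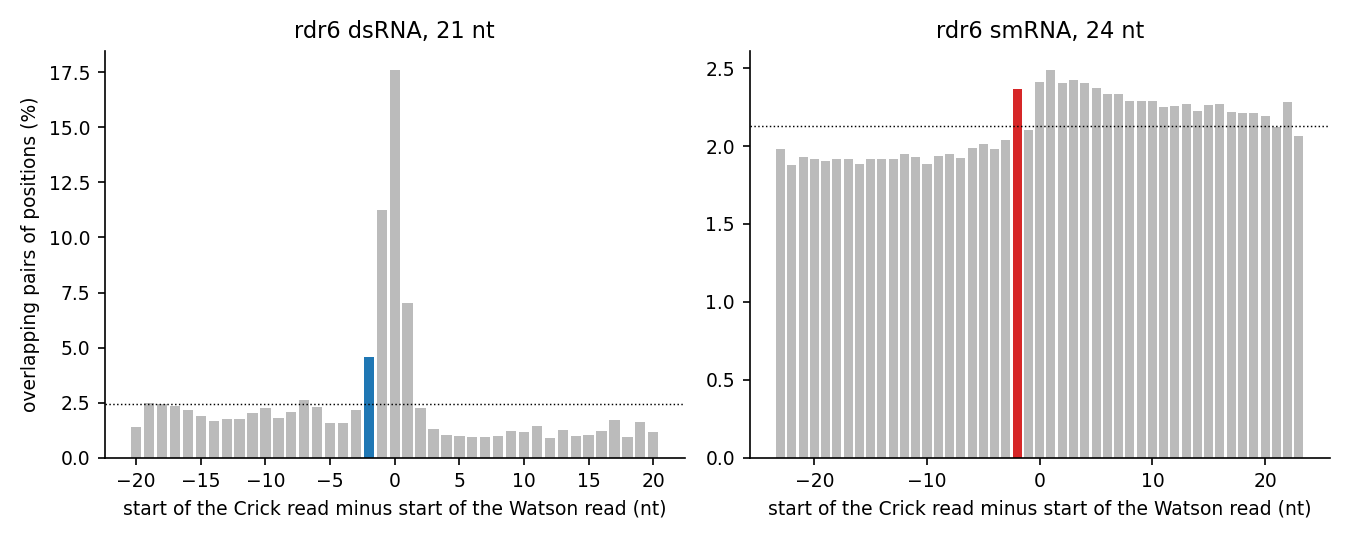
Overlapping pairs of read positions on opposite strands in nuclear bins carrying both (vertical, % of all such pairs) by the start of the Crick read minus the start of the Watson read (horizontal, nt), for 21-nt rdr6 dsRNA reads (left) and 24-nt rdr6 smRNA reads (right). Coloured bars mark the offset that leaves 2 unpaired bases at each 3′ end, the dotted line marks equal shares, and the vertical scales differ. Blunt pairs lead in dsRNA at 17.6%, and the shares in smRNA are all near 2.13%.

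The libraries also differed in the first base of their reads. In nuclear bins carrying both, adenine was the first base of 48.8% of the 24-nt smRNA reads, with 24.3% G, 18.2% T and 8.73% C, where A and T each make up 31.5% of these bins and G and C each 18.5%. In 21-nt dsRNA reads the first base was G in 51.9% and C in 31.2%, with A in 9.88% and T in 7.03%. The few 24-nt dsRNA reads resembled the smRNAs, with 50.6% A. In wild-type Col-0, the 21-nt dsRNA reads of these bins began with G in 34.1% and with C in 26.1%. Nuclear bins with 20 smRNA but without 20 dsRNA reads had a higher share of A among their 24-nt smRNAs, 57.3%.

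Long inverted repeats, whose transcripts can fold into dsRNA without a polymerase, were counted in the nuclear bins. A bin was counted as one when at least 10% of its 15-base words had their reverse complement within the bin or 1 kb of it. This was so in 34 of 5876 nuclear bins carrying both (0.579%, interval 0.401–0.808%), in 0.828% of the bins with smRNA only, in 0.0573% of those with dsRNA only and in 0.218% of all nuclear bins. Of the bins with at least 1000 reads in each library, 1 of 135 was of this kind. Reads that match both arms of a repeat have more than 1 location and were left out. The shares therefore do not show how common such repeats are among loci with both dsRNA and smRNA.

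miRNA hairpins carried both in 17 of 326 cases. MIR158a had 891 dsRNA and 25614 smRNA reads in rdr6 (log2 ratio -3.48, interval -3.57 to -3.38), and 96.9% of its smRNAs of 20 to 25 nt were 20 nt, the length of the mature miR158a-3p printed above. MIR161 had 144 and 11702 reads (-4.97), MIR780 187 and 9201 (-4.25), MIR156h, which yields a miRNA against SPL transcription factor genes, 51 and 2528 (-4.26), and MIR391 38 and 455 (-2.21). In these 5, 93.8% to 100% of the dsRNA reads matched an smRNA read exactly. At MIR161 the most abundant read of both libraries started 1 base before the annotated miR161.1. Of the 17 hairpins, 9 had 24 nt as the most frequent smRNA length, among them MIR8173 (268 dsRNA and 1050 smRNA reads, 86.0% 24 nt) and MIR5644 (805 and 631), and MIR5644 was called with dsRNA higher (1.72, interval 1.57 to 1.88).

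The TAS transcripts, templates of RDR6, had few reads left. Over all 8, rdr6 had 113 dsRNA and 552 smRNA reads, against 6050 and 55290 in wild-type Col-0. In rdr6, 2 of the 8 carried both, and in wild-type Col-0 7 did. TAS1C had 32 dsRNA and 85 smRNA reads in rdr6, against 1826 and 12965 in wild-type Col-0, and TAS2 had 49 and 76, against 1232 and 10849. TAS1A kept the most smRNA reads, 279 with 13 dsRNA reads, against 12506 and 1205 in wild-type Col-0. TAS3 had 8 dsRNA and 76 smRNA reads, against 1472 and 16032. TAS1B had 5 and 18, against 166 and 1539, TAS3b had 5 and 6, against 127 and 1152, and TAS3c (TASIR-ARF, AT5G57735) had 0 and 11, against 22 and 247. A count of 0 allows up to 3 reads. Each of these 7 was called lower in rdr6 in each assay, and TAS4 (AT3G25795) had 1 read in each rdr6 library and 0 in each wild-type library. The most frequent length of the remaining smRNAs was 21 nt in the same 7, with 251 of 278 at TAS1A, 56 of 75 at TAS2 and 52 of 84 at TAS1C. All 49 remaining dsRNA reads of TAS2 were on the sense strand, where 1021 of 1232 were in wild-type Col-0.

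Genes of the other lists did not carry both in rdr6. This was 0 of 4 TIR1/AFB auxin receptor genes, 0 of 3 ARF genes targeted by tasiRNAs of TAS3, 0 of 12 pentatricopeptide repeat (PPR) genes and 0 of 18 genes of the silencing machinery, where wild-type Col-0 had 2, 2, 4 and 2. Since 3.04% of all protein-coding genes carried both in rdr6, counts of 0 in lists of this size are near that share. In wild-type Col-0, 809 of all 27529 protein-coding genes carried both, against 838 in rdr6. The TIR1/AFB genes had 23 to 44 dsRNA reads and 1 to 4 smRNA reads each in rdr6. AFB3 had 4 smRNA reads in rdr6, against 462 in wild-type Col-0, with 34 and 66 dsRNA reads. ARF2, which had 349 dsRNA reads in rdr6, against 368 in wild-type Col-0, had 3 and 24 smRNA reads, and ARF4 had 4 and 114. AGO1, the main effector of miRNAs, had 178 dsRNA and 8 smRNA reads in rdr6, against 166 and 80. Between the genotypes, dsRNA was called lower in rdr6 in 1 TIR1/AFB gene (AFB3) and 3 PPR genes and higher in 1 TIR1/AFB gene (GRH1, 44 reads, against 13), and smRNA was called lower in 2, 2, 8 and 2 genes of the 4 lists in the order above. Over all genes tested, dsRNA was called lower in 5.85% and higher in 6.67%, and smRNA was called lower in 3.64%.

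**Figure D5:**
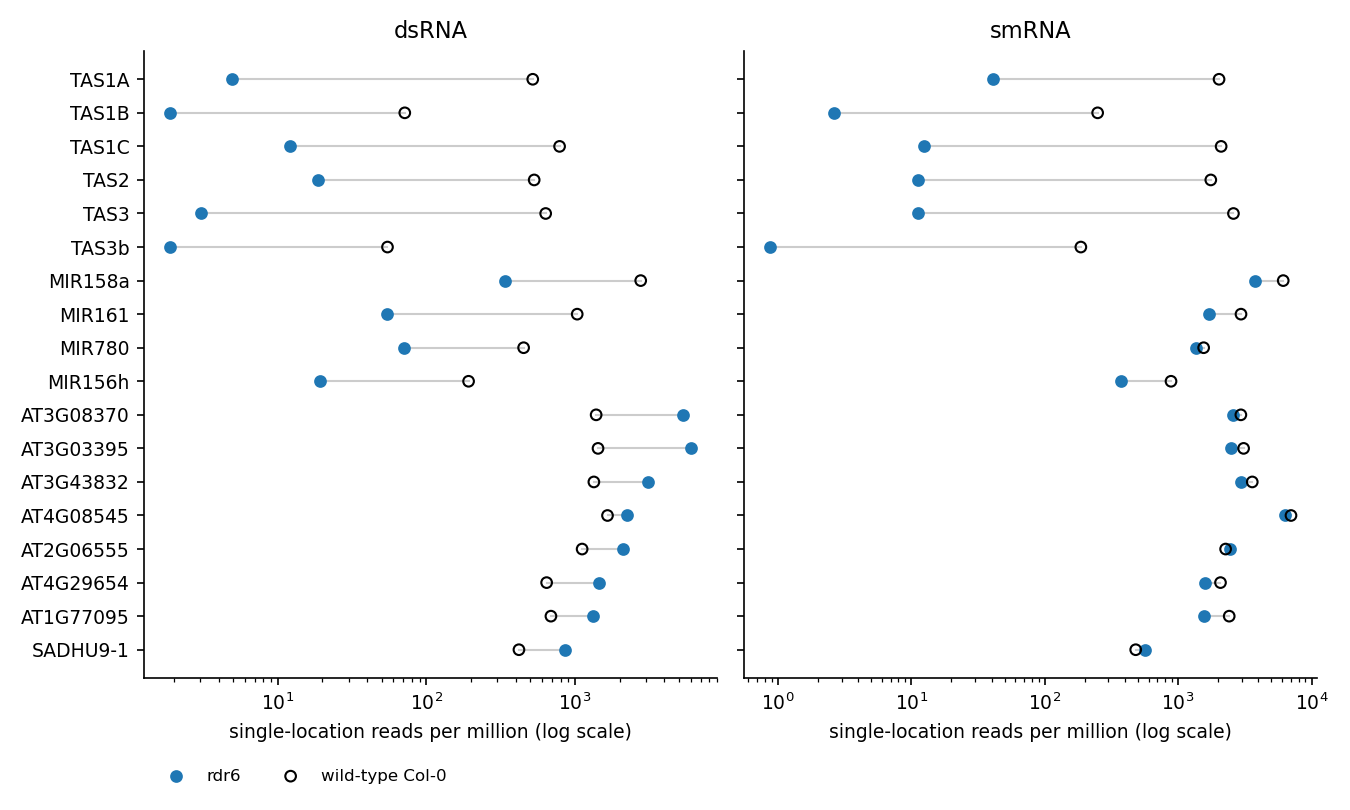
Single-location reads scaled to 1000000 (horizontal, log scale) of named loci in rdr6 (filled circles) and wild-type Col-0 (open circles), for dsRNA (left) and smRNA (right), 1 library per point. The loci are a selection of the named ones, so that each pattern holds for the loci shown only. The 6 TAS transcripts are lower in rdr6 in both assays, and the 4 miRNA hairpins lie lower in rdr6 with a wider gap in dsRNA. The 8 loci below them have more dsRNA in rdr6 with smRNA close to wild-type Col-0. The ranked hairpins MIR8173 and MIR5644 are not shown. Their log2 ratios of dsRNA in rdr6 to wild-type Col-0 were 0.73 and 0.33, which were not called.

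Most loci carrying both did so in each genotype. Of the 2430 genes, 1748 also carried both in wild-type Col-0, which is 71.9% of the rdr6 set and 83.5% of the 2094 genes of the wild-type set. For bins, 3995 were shared, 66.8% of the rdr6 set and 76.4% of the 5227 in the wild-type set. A further 682 genes carried both in rdr6 only and 346 in wild-type Col-0 only. Of the 682, pseudogenes made up 448.

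At these loci the smRNA reads of rdr6 were close to those of wild-type Col-0, with a median log2 ratio of rdr6 to wild type of -0.06 for genes and -0.04 for bins. smRNA was called higher in rdr6 in 9 genes and lower in 87 (3.58%), where 1.12% and 3.64% of all 6351 genes tested were called in these directions. Among bins it was higher in 38 and lower in 108, with 0.974% and 1.53% called over 24239 bins.

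dsRNA differed more. It was called higher in rdr6 in 733 genes (30.2%) and lower in 163 (6.71%), where 6.67% and 5.85% of 12750 genes tested were called, and the median log2 ratio was 0.78, against -0.19 over all genes tested. Among bins it was higher in 1827 (30.6%) and lower in 490, with 11.1% and 9.98% called over 18282 bins, and medians of 0.82 and -0.06. Since the minimum of 20 reads was set in the rdr6 libraries, it favours loci with many rdr6 reads. Among the 2094 genes chosen by the wild-type libraries, dsRNA was higher in rdr6 in 502 and lower in 338, with a median of 0.39, and among the 5227 bins so chosen it was higher in 1091 and lower in 1397, with a median of 0.06. For bins, therefore, the direction of the larger count depended on which genotype chose them. Among the 3995 bins carrying both in each genotype, 1084 were higher and 489 lower.

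By class, dsRNA was higher in rdr6 in 485 of 1274 pseudogenes (38.1%), with 25 lower, and in 196 of 838 protein-coding genes (23.4%), with 44 lower. Among pseudogenes the smRNA was higher in 1 and lower in 0 at the same time. It was the other way for snoRNAs, with dsRNA lower in 57 of 73 and higher in 1, and smRNA lower in 36 and higher in 0. The whole smRNA libraries differed too, with 0.582% chloroplast reads in rdr6, against 1.01% in wild-type Col-0. Reads of 38 nt were 0.0874% of rdr6 smRNA, against 0.24%. The part of these library differences in the snoRNA counts was not tested. AT3G03395 had 15866 dsRNA reads in rdr6, against 3313 in wild-type Col-0 (log2 ratio 2.08, interval 2.02 to 2.13), with 17076 and 19107 smRNA reads. AT3G43832 had 8126 dsRNA reads in rdr6, against 3107 (1.20), and SADHU9-1 had 2241, against 973 (1.02). Of the 38 miRNA hairpins carrying both in wild-type Col-0, 12 also did so in rdr6 and 26 did not. The read minimum was set in the rdr6 libraries, which leaves out hairpins whose dsRNA fell below it. The median of the remaining hairpins is therefore no measure of change over all of them. Among the 17 hairpins carrying both in rdr6, dsRNA was lower in rdr6 in 6, higher in 0 and not called in 11, with a median log2 ratio of -0.08. The 6 include MIR158a, with 891 reads in rdr6, against 6415 in wild-type Col-0 (-3.03, interval -3.14 to -2.93), and MIR161, with 144, against 2398 (-4.24, -4.50 to -4.00), while their smRNA reads were 25614 and 11702 in rdr6, against 37849 and 18271.

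Few loci moved in both assays. Both were lower in rdr6 in 48 genes, TAS1C and TAS2 among them. Of the 48, 30 were snoRNAs, 7 protein-coding genes, 5 chloroplast tRNAs, 1 the miRNA gene MIR156h and 5 other non-coding RNAs. Some of these overlap and share reads, such as MRD1, HEI10 and AT1G07887, with 27 or 28 dsRNA reads each. Both were higher in rdr6 in 3 protein-coding genes. The glycine-rich protein gene AT2G15340 had 184 dsRNA and 487 smRNA reads in rdr6, against 10 and 37 in wild-type Col-0. AT1G24735, of a methyltransferase family, had 45 and 67, against 7 and 5, and AT5G17740 had 34 and 75, against 6 and 31. In all 3 the smRNAs were mostly 24 nt (77.3% to 94.0%). The remaining genes with smRNA higher in rdr6 were AT2G22805, a defensin-like gene (730 smRNA reads in rdr6, against 40), AT3G49230 (2692, against 579), AT4G09500 (381, against 10), AT3G05945 (73, against 2), AT4G16190 (49, against 18) and the pseudogene AT4G06632 (745, against 294). In 5 further genes dsRNA was higher and smRNA lower in rdr6, the F-box gene AT1G66490 (188 dsRNA and 40 smRNA reads in rdr6, against 44 and 165), AT4G24975 (44 and 26, against 6 and 66) and the chloroplast tRNAs trnW, trnP and trnS. In these tRNAs the higher dsRNA was antisense, with 7652, 46021 and 18107 reads in rdr6, against 1143, 4303 and 2874. Their sense dsRNA reads were fewer in rdr6, with 82, 6485 and 1110, against 301, 8603 and 4737. At least 99.4% of their rdr6 smRNA reads were sense. The genes called in smRNA were named after their values were seen, because they are so few.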

How the data were processed

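The authors deposited, for each library, non-redundant sequences with a read count and every genomic location. Per the study's methods, 3′ adapters were trimmed where at least 6 bases were found, reads were aligned to TAIR 9 with cross_match at up to 6% mismatches, and all locations were kept. Here, reads with 1 location were summed per gene (by their middle base, both strands, RefSeq annotation of TAIR 10.1) and per 1000-base bin, with Python 3.11.15, numpy 2.4.6, scipy 1.17.1 and pandas 2.3.3. Reads in small structured RNA genes were kept out of overlapping genes, and other overlapping genes share reads. Values were scaled by single-location reads. Log2 ratios carry exact conditional binomial intervals, and scripts were tested on simulated data. Named loci were the listed genes, RDR6, the 8 top nuclear genes of 4 classes and 8 top bins outside genes by the smaller scaled value, and the 5 most extreme ratios of nuclear genes each way. Members and lists were chosen with earlier results of these data known. Alternatives covered read minimum, location, length, scaling, strand rule, fold and the wild-type library after 2 rounds of depletion.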

Additional observations from a re-analysis of the deposited data

Results flagged for a closer look

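In 25 genes carrying both in rdr6, dsRNA was called higher than smRNA in rdr6 whereas smRNA was called higher than dsRNA in wild-type Col-0, and the same held for 64 bins. The difference between the genotypes was not tested. These calls used the main scaling. Reads outside structured RNA genes and the organelles were 47.4% of wild-type Col-0 dsRNA and 98.4% of wild-type Col-0 smRNA. Scaling by them moves the wild-type log2 ratios up as well, and many of the 25 lie close to the 2-fold limit there. Among those are AT3G03395, AT3G08370, AT3G28674 and MRD1, with wild-type log2 ratios between -1.12 and -1.06. Whether they show the pattern therefore depends on the scaling. The pattern was not counted under that scaling. AT3G03395 had log2 ratios of dsRNA to smRNA of 1.26 in rdr6, against -1.11 in wild-type Col-0, and AT3G08370 had 1.05 in rdr6, against -1.09. AT3G28674 had 3417 dsRNA and 2413 smRNA reads in rdr6, against 539 and 3127 in wild-type Col-0. In AT3G03945 the smRNA differed more, with 136 and 20 reads in rdr6, against 63 and 624. MRD1 had 28 and 25 reads in rdr6, against 72 and 401. The opposite pattern was seen in 1 gene, AT4G09500, a UDP-glycosyltransferase family gene, with 43 dsRNA and 381 smRNA reads in rdr6, against 16 and 10, and in 0 bins.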

How the results depend on the processing

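Of 87 alternative values of the summary results, 49 stayed close to the main value and 38 moved. A minimum of 100 reads left 825 genes and 1613 bins carrying both, a minimum of 10 gave 9149 bins, and reads at all locations gave 6254 genes and 20483 bins. A ratio of at least 4 left dsRNA higher in 188 genes and 368 bins and smRNA higher in 307 and 1143. Scaling without structured RNAs and organelles gave 813 and 2089 with dsRNA higher and 342 and 1225 with smRNA higher. Reads at all locations gave 174 and 316 with dsRNA higher and 1556 and 3893 with smRNA higher, and non-redundant sequences gave 406 bins with dsRNA higher. Two-stranded bins numbered 3728 at 10%, and an exact binomial test at 0.05 left 250.0 genes and 410.0 bins without bias. Matched dsRNA reads were 53.2% in genes and 55.7% in bins at any length and 11.7% and 13.3% by sequences, and 90.6% lay within a 24-nt smRNA read, a setting that was chosen after seeing the data. The 2-base overhang was 2.88% by reads. Against wild-type Col-0, a ratio of at least 4 left dsRNA higher in 155 genes and 463 bins and lower in 41 and 144, and smRNA higher in 16 bins and lower in 10 genes and 10 bins. With the wild-type library after 2 rounds, dsRNA was higher in 1558 genes and 3870.0 bins and lower in 155 bins, and with dsRNA reads outside 20 to 25 nt it was lower in 115 bins. Of 263 values of 44 named genes, 213 kept their call and direction, 24 lost the call, 23 gained one and 3 reversed. With reads at all locations the log2 ratio was -1.03 at AT3G43832 and -1.16 at AT2G16905, and with dsRNA reads outside 20 to 25 nt it was -1.05 at AT1G09485. The causes were not tested. No paired analysis was possible because each condition has 1 library. Loci with few reads, such as the TAS transcripts in rdr6, are limited by depth.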
